A study of Saccharomyces cerevisiae with 15 samples.

Results

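The Hsp70 chaperones of the yeast cytosol work with J-proteins and nucleotide exchange factors, and 10 genes for such partners were followed here across every library of the series. They were listed by systematic identifier, with earlier results of these data known, and make up 10 of the 7126 genes in the deposited table. The J-protein genes numbered 6: YDJ1 (YNL064C), SIS1 (YNL007C), APJ1 (YNL077W), XDJ1 (YLR090W), CAJ1 (YER048C) and DJP1 (YIR004W). The exchange factor genes numbered 4: SSE1 (YPL106C), SSE2 (YBR169C), FES1 (YBR101C) and SNL1 (YIL016W). All 10 passed the filter on low values that left 6399 genes for testing.

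An Hsp70 binds exposed stretches of other proteins in a cycle driven by ATP. J-proteins deliver substrates and stimulate hydrolysis of ATP, which closes Hsp70 on its substrate, and exchange factors release ADP so that the substrate is let go. In yeast the transcription factor Hsf1 drives many chaperone genes, and Hsp70 bound to Hsf1 holds it in check.

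Messenger RNA was sequenced from Saccharomyces cerevisiae cultures in rich YPD medium at mid-log phase, as 15 libraries in 5 groups of 3 biological replicates. Cells at 30 °C carried wild-type HSF1, hsf1-mN (the amino-terminal Hsp70 site of Hsf1 mutated, below mN), hsf1-mC (the carboxyl-terminal site mutated, mC) or hsf1-mNmC (both sites mutated, mNmC). The fifth group was wild type moved to 37 °C for 15 min. The comparisons ask how the mRNA of each gene depends on the Hsp70 sites of Hsf1, and how the mutants stand beside a short heat shock. The strain background, and whether replicates of a genotype share a clone, are not stated in the labels. Values are FPKM, reads scaled to gene length and to library total, so that levels can be set side by side between genes.

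Libraries held 15462618 to 25409519 counted reads, and the members had from 470 reads (SNL1) to 41232 reads (SSE1) in a library. The libraries labelled mNmC replicate 3 and 37 °C replicate 3 stood apart from their groups. Over the 10 members, the library labelled mNmC replicate 3 lay a mean of 0.66 log2 units from the other mNmC libraries and 0.08 from replicates 1 and 2 at 37 °C. The library labelled 37 °C replicate 3 lay 0.61 from the others at 37 °C and 0.10 from mNmC replicates 1 and 2. The same held over all 6399 tested genes, by mean Spearman rank correlation. That of the library labelled mNmC replicate 3 was 0.921 with its own group and 0.997 with replicates 1 and 2 at 37 °C. For the library labelled 37 °C replicate 3 it was 0.918 with its own group and 0.996 with mNmC replicates 1 and 2. CTT1, the cytosolic catalase and a heat marker, read 980 FPKM in the first of these libraries against 21.4 and 22.7 in the rest of its group, and 20.4 in the second against 1003 and 1009.8. Results are therefore given with all 15 libraries as labelled, and with the 13 that remain without these 2. HSF1 mRNA itself stood at 152 to 158 FPKM in wild type at 30 °C, 86.1 to 109.7 in mN and 230.4 to 261 in mC. It was 52.1 and 59.4 in mNmC replicates 1 and 2, with 149.9 in the library labelled replicate 3. At 37 °C it was 158.9 and 148.5, with 67.6 in the library labelled replicate 3. In mN, replicate 1 differed more from replicates 2 and 3 (chi-square of 127 and 153 per gene) than these did from each other (11.1), so results in mN are also given without it where that changes a call.

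Hsf1 binds the heat shock element, repeats of GAA and its complement TTC. The 500 bases before each start codon in the R64 genome were searched on both strands for 3 adjoining units, spelled GAANNTTCNNGAA or TTCNNGAANNTTC. SIS1, SSE1 and FES1 had such a run, as did 89 of 6000 windows of that length (1.48%). A pair of units, GAANNTTC or TTCNNGAA, lay before YDJ1, APJ1, SSE2 and again the first 3 genes, and before 35.2% of all windows; every run of 3 units also holds pairs. CAJ1, DJP1, XDJ1 and SNL1 had neither spelling in this window. The matches of the 6 genes are shown 5′ to 3′ on the gene's strand, with the matched run in capitals, because these genes are compared throughout; SSE2 had a second pair and SSE1 a further pair that are not shown. SIS1 (chrXIV:619883-619912, minus strand) had 3 overlapping runs in bases 344 to 322 before the start codon. The others lie at chrXVI:352440-352469 (SSE1, minus), chrII:444843-444872 (FES1, minus), chrXIV:507414-507443 (YDJ1, minus), chrXIV:481085-481114 (APJ1, plus) and chrII:576215-576244 (SSE2, minus).
SIS1: tatGAACGTTCCAGAAACTTCTGGAAaaag
SSE1: gaagatgaTTCTAGAAGATTCcttttccaa
FES1: ttggactgGAATCTTCTGGAAgttttttgg
YDJ1: ttcatttctttTTCAAGAAatgaaaaggca
APJ1: cgctcgatttcTTCTAGAAcattacggaaa
SSE2: atagtagacgtTTCTAGAAcgtccccttac

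The stress response element bound by Msn2 and Msn4, spelled AGGGG or CCCCT, was found before APJ1, XDJ1, DJP1, SSE2 and SNL1, and before 34.1% of all windows. The proteasome-associated control element bound by Rpn4, GGTGGCAAA or TTTGCCACC, was before no member and before 1.65% of windows. A match is a spelling in the reference genome, not a measured binding site, and these windows start at the coding sequence, so they include the 5′ untranslated region.

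**Figure D1:**
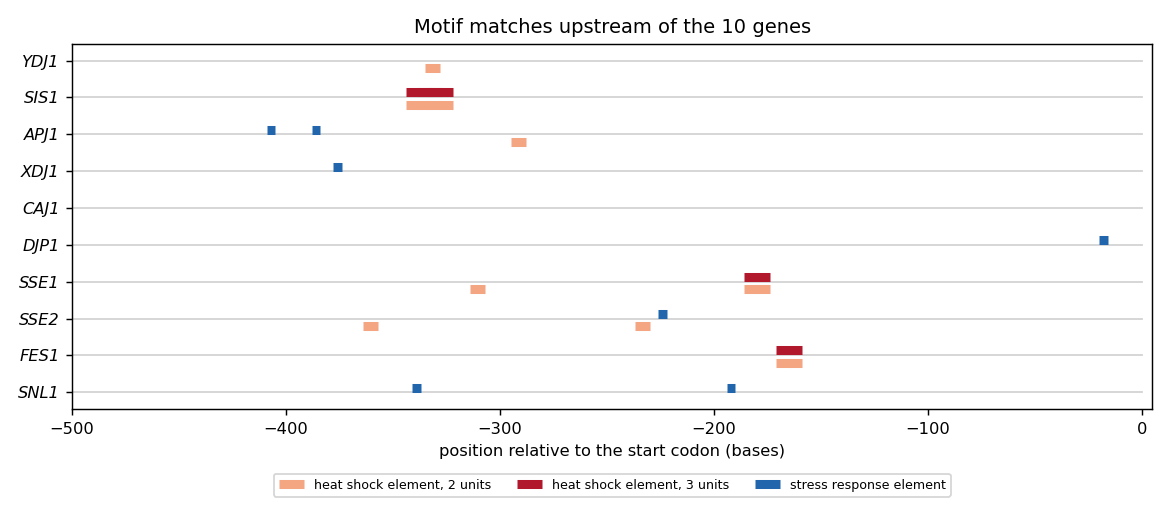
Motif matches in the 500 bases before the start codon of each gene, drawn to scale as distance from the start codon in bases. Colours mark runs of 3 heat shock units (SIS1, SSE1 and FES1), pairs of units and stress response elements; CAJ1 has no match.

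SIS1, the essential J-protein of the cytosol and nucleus, rose to 3.38 times its mean wild-type level in mNmC and to 2.90 times at 37 °C with 13 libraries. Its level was 374, 409.9 and 387 FPKM in wild type at 30 °C, and in mN it was 366, 564 and 503. In mC it was 691, 666 and 651 FPKM. In mNmC it was 1315 and 1324 FPKM with 1134 in the library labelled replicate 3, and at 37 °C 1198 and 1069 with 1249 in the library labelled replicate 3. All libraries of mC lay above those of wild type at 30 °C and mN, and all of mNmC and 37 °C lay above mC, whichever way the 2 libraries are counted. Against wild type at 30 °C the log2 change in mNmC, taken on FPKM + 1 by a limma fit over all genes, was 1.68 ± 0.15 (SE, Benjamini-Hochberg adjusted p = 1.78e-05, called under 0.05) as labelled and 1.75 ± 0.14 (5.08e-06) with 13 libraries. At 37 °C it was 1.58 ± 0.15 (2.98e-05) and 1.53 ± 0.14 (2.62e-06). In mC it was 0.78 ± 0.15 as labelled, which did not pass (adjusted p = 0.0609), and 0.78 ± 0.13 with 13 libraries, which did (0.00395). In mN it was 0.27 ± 0.15 (0.546) as labelled and 0.27 ± 0.13 (0.182) with 13 libraries; without mN replicate 1 as well, it was 0.45 and passed. SIS1 was the member whose calls held in mNmC against wild type, mN and mC, and at 37 °C, under every alternative tried.

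YDJ1, the most studied J-protein of the yeast cytosol and one attached to membranes by a farnesyl group, was higher in mC and mNmC but not at 37 °C with 13 libraries. It read 542, 541 and 558 FPKM in wild type at 30 °C, while mN gave 489, 533 and 534. In mC it read 846, 852 and 848 FPKM, and in mNmC 1238 and 1282, against 584 in the library labelled replicate 3. Heat gave 581 and 514 FPKM, against 1208 in the library labelled replicate 3. Without the 2 libraries the groups of mC and mNmC did not overlap each other or the rest, and the values at 37 °C spanned those of wild type at 30 °C. The log2 change in mNmC was 0.83 ± 0.32 (adjusted p = 0.0688) as labelled and 1.20 ± 0.07 (5.42e-07) with 13 libraries. In mC it was 0.63 with both, ± 0.32 (0.521) as labelled and ± 0.06 (3.44e-04) with 13 libraries. At 37 °C it was 0.38 ± 0.32 (0.347) as labelled and -0.00 ± 0.07 (0.993, 95% interval -0.16 to 0.16) with 13 libraries; upper-quartile scaling of the 13, which sets their 75th percentiles equal, turned this into a call of -0.23 ± 0.07 (0.0169).

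APJ1, a J-protein of the same class as Ydj1 and far less abundant, followed YDJ1 from group to group. It read 28.8, 31.3 and 30.9 FPKM in wild type at 30 °C, while mN gave 26.7, 37.6 and 32.4. In mC it read 51.7, 52.3 and 56.5 FPKM. In mNmC it read 77.3 and 77.9 FPKM, against 34.9 in the library labelled replicate 3, and at 37 °C 33.8 and 32.1, against 73.5 in the library labelled replicate 3. Both mNmC replicates 1 and 2 were above all mC libraries, which were above wild type at either temperature once the 2 libraries were left out. The change in mNmC was 0.95 ± 0.32 (adjusted p = 0.0454) as labelled and 1.33 ± 0.11 (6.60e-06) with 13 libraries. In mC it was 0.80 ± 0.32 (0.394) as labelled and 0.80 ± 0.10 (0.00107) with 13 libraries. At 37 °C with 13 libraries it was 0.11 ± 0.11 (0.386, interval -0.13 to 0.36), and 0.49 ± 0.32 (0.233) as labelled. The level of APJ1 divided by that of YDJ1 lay between 0.0532 and 0.0705 in all 15 libraries.

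XDJ1, CAJ1 and DJP1 moved less. XDJ1, a J-protein found at the surface of mitochondria, spanned 37.4 to 64.3 FPKM over all libraries and with 15 or 13 libraries passed in neither mNmC nor 37 °C against wild type at 30 °C. Its log2 difference with 13 libraries was 0.20 ± 0.12 (interval -0.07 to 0.47) in mNmC and 0.28 ± 0.12 (0.01 to 0.55, adjusted p = 0.0661) at 37 °C. Without mN replicate 1 as well, the same differences passed, with an SE of 0.06 (adjusted p = 0.0122 in mNmC and 0.00113 at 37 °C). CAJ1 read 63.4, 65.2 and 65.6 FPKM in wild type at 30 °C, and all 12 other libraries were higher, at 69.4 to 91.3 FPKM. It rose in mNmC by 0.35 ± 0.09 (0.0135) as labelled and 0.43 ± 0.07 (5.22e-04) with 13 libraries, and at 37 °C by 0.29 ± 0.09 (0.0249) and 0.26 ± 0.07 (0.00670); upper-quartile scaling ended all of these calls.

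DJP1, which serves the import of proteins into peroxisomes, differed in direction between mNmC and heat with 13 libraries. It read 35.3, 37.9 and 36.2 FPKM in wild type at 30 °C, 35.8, 41.0 and 43.2 in mN and 45.8, 41.2 and 43.1 in mC. In mNmC it read 48.8 and 51.3 FPKM, against 29.2 in the library labelled replicate 3, and at 37 °C 28.3 and 25.2, against 41.5 in the library labelled replicate 3. Without those 2 libraries every mNmC value was above, and every 37 °C value below, all others. The change was 0.45 ± 0.09 (adjusted p = 0.00185) in mNmC and -0.43 ± 0.09 (0.00106) at 37 °C, and both calls were kept after upper-quartile scaling of the 13. As labelled neither passed, at 0.20 ± 0.20 (0.485) and -0.23 ± 0.20 (0.384).

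**Figure D2:**
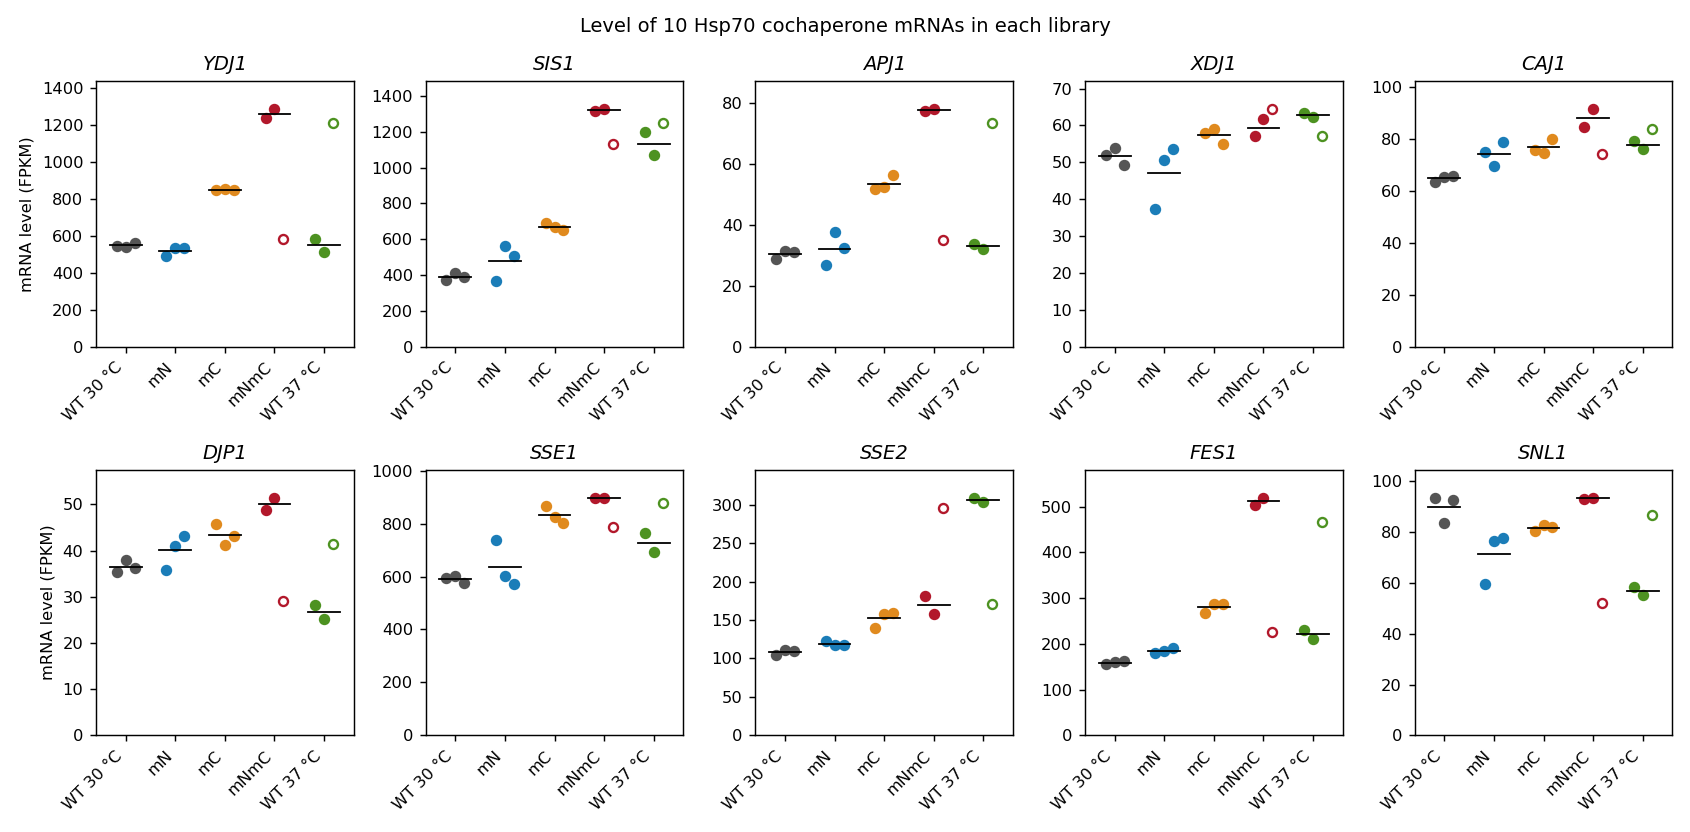
FPKM of the 10 genes in each library by group, 1 panel per gene. Open symbols are the libraries labelled mNmC replicate 3 and 37 °C replicate 3, and lines are group means without them. The highest filled point lies at 37 °C for SSE2 and XDJ1 and in mNmC for the other genes. For SNL1 it barely exceeds wild type at 30 °C (93.33 against 93.28 FPKM).

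Of the exchange factors, FES1 had the largest rise in mNmC. Fes1 is built of armadillo repeats and acts on the cytosolic Hsp70s. FES1 read 156, 159 and 162 FPKM in wild type at 30 °C, 181, 184 and 190.1 in mN and 268, 288 and 288 in mC. In mNmC it read 505 and 519 FPKM, against 226 in the library labelled replicate 3. Heat gave 231 and 210.5 FPKM, against 467 in the library labelled replicate 3. Without the 2 libraries no group overlapped another, and the order from low to high was wild type at 30 °C, mN, 37 °C, mC and mNmC. The rise in mNmC was 1.29 ± 0.31 (adjusted p = 0.0107) as labelled and 1.68 ± 0.07 (3.44e-08) with 13 libraries. With 13 libraries FES1 also rose in mC by 0.82 ± 0.06 (2.34e-05), at 37 °C by 0.47 ± 0.07 (6.76e-05) and in mN by 0.22 ± 0.06 (0.0271). As labelled these were 0.82 ± 0.31 (0.352), 0.83 ± 0.31 (0.0541) and 0.22 ± 0.31 (0.860), and none passed.

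SSE1 and SSE2 encode the yeast Hsp110 proteins, relatives of Hsp70 that act as its exchange factors. SSE1 read 594, 600.1 and 577 FPKM in wild type at 30 °C, while mN gave 737, 601 and 570.2. It read 867, 827 and 801 FPKM in mC, 895 and 896 in mNmC with 786 in the library labelled replicate 3, and 765 and 691 at 37 °C with 876 in the library labelled replicate 3. The wild-type values at 30 °C were below all of mC, mNmC and 37 °C, and mN overlapped them. SSE1 rose in mNmC by 0.54 ± 0.13 (adjusted p = 0.00975) as labelled and 0.60 ± 0.10 (7.07e-04) with 13 libraries, and at 37 °C by 0.39 ± 0.13 (0.0332) and 0.30 ± 0.10 (0.0208), calls that upper-quartile scaling ended in each case. In mC it was 0.49 ± 0.13 (0.154) as labelled and 0.49 ± 0.09 (0.00643) with 13 libraries.

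SSE2 read 104, 112 and 109.8 FPKM in wild type at 30 °C, 122, 117 and 118 in mN and 140.2, 157 and 159 in mC. In mNmC it read 181 and 158 FPKM, against 296 in the library labelled replicate 3, and at 37 °C 308 and 304, against 171 in the library labelled replicate 3. Heat gave the highest level and the mutants a lesser one once the 2 libraries were left out, with mC and mNmC overlapping. The rise at 37 °C was 1.21 ± 0.24 (adjusted p = 0.00290) as labelled and 1.49 ± 0.08 (2.74e-08) with 13 libraries. In mNmC it was 0.90 ± 0.24 (0.0153) and 0.64 ± 0.08 (9.75e-05). Upper-quartile scaling of the 15 libraries left mNmC short of the threshold (0.69, adjusted p = 0.0643); with the 13 it passed (0.43, 0.00706).

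SNL1, an exchange factor with a BAG domain that is anchored in the membrane of the endoplasmic reticulum, was lower at 37 °C with 13 libraries. It read 93.3, 83.7 and 92.7 FPKM in wild type at 30 °C, 59.7, 76.7 and 77.8 in mN and 80.3, 82.6 and 81.8 in mC. In mNmC it read 93.1 and 93.3 FPKM, against 51.9 in the library labelled replicate 3, and at 37 °C 58.6 and 55.3, against 86.6 in the library labelled replicate 3. Without the 2 libraries the 37 °C values were below all others, and those of mNmC overlapped wild type at 30 °C. The change at 37 °C was -0.65 ± 0.10 (adjusted p = 1.84e-04) with 13 libraries and -0.45 ± 0.22 (0.117) as labelled. In mN it was -0.34 ± 0.09 (0.0281) with 13 libraries and -0.34 ± 0.22 (0.613) as labelled; without mN replicate 1 as well, it was -0.21 ± 0.05 (0.0135). In mNmC with 13 libraries it was 0.05 ± 0.10 (interval -0.17 to 0.28). After upper-quartile scaling of the 13 the change in mNmC was -0.15 ± 0.07, which did not pass (limma adjusted p = 0.0923).

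Counted over the members, 6 rose and none fell in mNmC against wild type at 30 °C as labelled, where 24.5% of all tested genes were called higher and 2.41% lower. With 13 libraries 8 rose and none fell, where 40.6% were called higher and 7.39% lower, and the 2 that did not pass were XDJ1 and SNL1. The members' median log2 difference with 13 libraries was 0.62, beside 0.25 over all tested genes. That median of all genes moved to 0.06 with upper-quartile scaling, after which 6 members were higher with the 13 (22.2% of all genes higher, 15.3% lower) and 2, SIS1 and FES1, with all 15 (10.3% and 5.38%). Values scaled to a library's own total are shares of that library, so they do not show whether total mRNA per cell changed. The cause of the shift of the median was not tested.

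In mC none of the 10 passed as labelled (5 had an unadjusted limma p under 0.05, as had 10.6% of all genes), where 0.172% of all genes were called higher and 0.0156% lower. With 13 libraries 7 were higher and none lower (YDJ1, SIS1, APJ1, CAJ1, SSE1, SSE2 and FES1), where 12.3% were higher and 2.45% lower, and the median was 0.49 beside 0.09 over all genes. After upper-quartile scaling of the 13, 5 were higher without CAJ1 and SSE1, and SNL1 was lower at -0.20 ± 0.06 (adjusted p = 0.0497), where 7.67% of all genes were higher and 4.58% lower. In mN none passed as labelled, nor had an unadjusted p under 0.05 (0.422% of all genes were called higher and 0.0313% lower). With 13 libraries FES1 was higher and SNL1 lower (12.8% and 5.36%), with a median of 0.11 beside 0.03. With 12 libraries, that is, without mN replicate 1 as well, 4 were higher (SIS1, CAJ1, DJP1 and FES1) and SNL1 was lower, where 22.6% and 6.94% of all genes were called.

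Heat in wild type gave 4 members higher as labelled (SIS1, CAJ1, SSE1 and SSE2), where 32.1% of all genes were higher and 5.97% lower. With 13 libraries SIS1, SSE2, FES1, SSE1 and CAJ1 were higher and DJP1 and SNL1 lower, where 47% and 18.9% of all genes were called. The members' median was then 0.27, beside 0.29 over all genes, and 0.04 beside 0.07 after upper-quartile scaling. That scaling left SIS1, SSE2 and FES1 higher, and YDJ1, DJP1 and SNL1 lower, where 35.2% of all genes were higher and 29% lower.

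**Figure D3:**
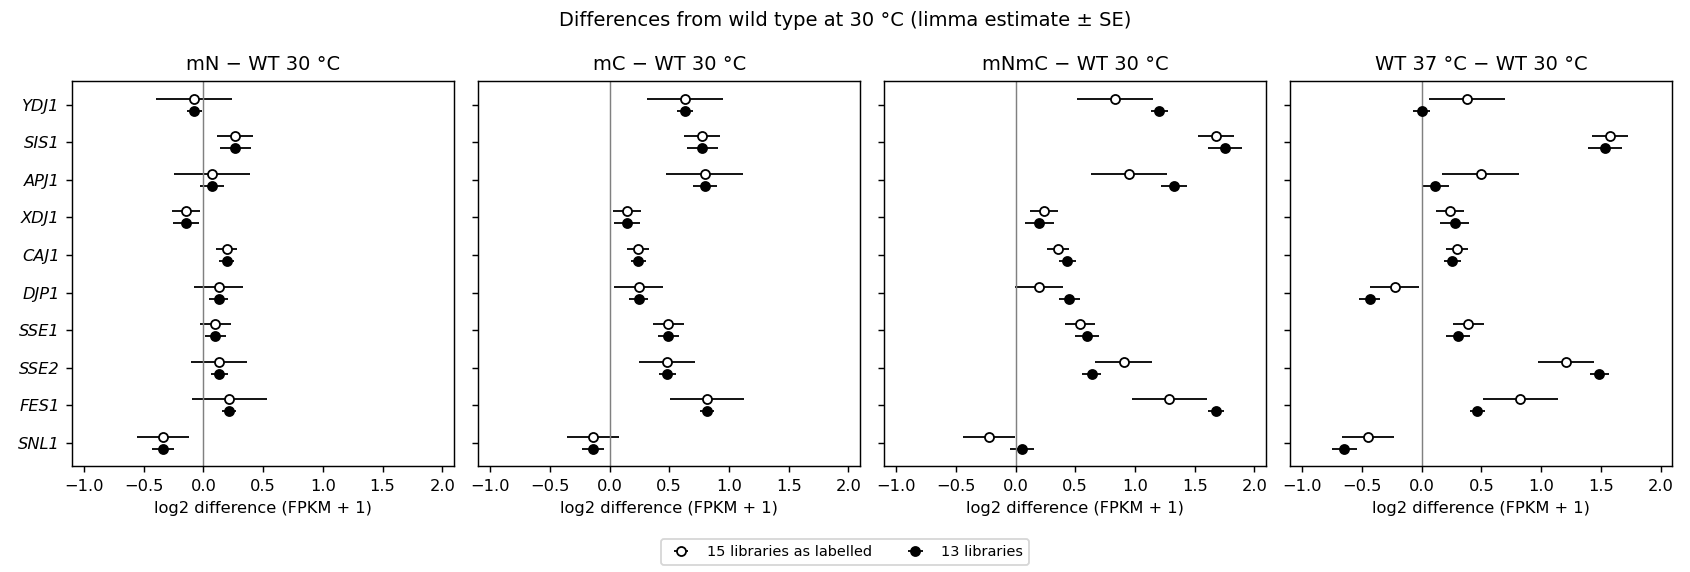
Log2 difference of FPKM + 1 from wild type at 30 °C for each gene (limma estimate, bars ± SE), with all 15 libraries as labelled (open) and with 13 (filled). YDJ1, APJ1 and FES1 move to the right in mNmC and to the left at 37 °C when the 2 libraries are left out. The shifts are not corrected for the median of all genes. With upper-quartile scaling of the 13, YDJ1 and APJ1 lie below 0 at 37 °C, as do DJP1 and SNL1. XDJ1 and SNL1 (-0.15) then lie below 0 in mNmC, as does DJP1 when all 15 are scaled.

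The next comparisons ask what a mutation adds to the other one. Between mNmC and mN, 5 members were higher as labelled (SIS1, XDJ1, SSE1, SSE2 and FES1; 20.1% of all genes higher, 2.67% lower). With 13 libraries all 10 were higher, where 39.6% of all genes were higher and 10.6% lower, from 0.24 ± 0.07 for CAJ1 to 1.49 ± 0.14 for SIS1. Upper-quartile scaling of the 13 kept 5 of these, YDJ1, SIS1, APJ1, SSE2 and FES1, where 22.3% of all genes were higher and 20.9% lower. Between mNmC and mC, SIS1 alone was higher as labelled, by 0.91 ± 0.15 (adjusted p = 0.00216; 12.4% of all genes higher, 2.27% lower). With 13 libraries SIS1 (0.98 ± 0.14), FES1 (0.86 ± 0.07), YDJ1 (0.57 ± 0.07), APJ1 (0.53 ± 0.11) and CAJ1 (0.19 ± 0.07) were higher, where 27.6% of all genes were higher and 9.52% lower, and scaling ended the call of CAJ1. Between mC and mN none passed as labelled, and 5 had an unadjusted limma p under 0.05, as had 4.28% of all genes (0.109% of all genes called higher, 0.0469% lower). With 13 libraries YDJ1 (0.71 ± 0.06), APJ1 (0.73 ± 0.10), FES1 (0.60 ± 0.06) and SSE2 (0.35 ± 0.07) were higher in mC, where 0.453% of all genes were higher and 0.578% lower, and scaling ended the call of SSE2.

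Whether the effect of 1 mutation depended on the other was tested as the interaction, the difference of mNmC from mN less that of mC from wild type at 30 °C. As labelled no member passed (3.5% of all genes higher and 1.19% lower), and SIS1 was the 1 with an unadjusted limma p under 0.05, at 0.64 ± 0.21 (adjusted p = 0.108). With 13 libraries 5 passed, all above 0, where 22.1% of all genes were above and 12.8% below. SIS1 had 0.71 ± 0.19 (0.0158), YDJ1 0.65 ± 0.10 (6.68e-04) and FES1 0.65 ± 0.09 (3.76e-04). SNL1 had 0.53 ± 0.14 (0.0138), and APJ1 0.46 ± 0.15 (0.0361), which did not pass after upper-quartile scaling. SSE1 and SSE2 gave 0.01 ± 0.14 (interval -0.29 to 0.31) and 0.02 ± 0.11 (-0.21 to 0.26).

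Set against heat directly, no member and no gene of the 6399 was called between mNmC and wild type at 37 °C as labelled (0% by limma's adjusted p). An unadjusted limma p under 0.05 was found for 65 genes, no member among them. Each group as labelled held 1 library that correlated more with the other group (0.997 and 0.996) than with its own (0.921 and 0.918). The fit as labelled therefore could not settle whether mNmC and heat differ. With 13 libraries 6 members were higher in mNmC and 1 lower, where 28% of all genes were higher and 28.8% lower. YDJ1 was higher by 1.20 ± 0.08 (adjusted p = 2.70e-07), APJ1 by 1.21 ± 0.12 (7.10e-06) and FES1 by 1.21 ± 0.07 (1.22e-07). DJP1 (0.88 ± 0.10), SNL1 (0.70 ± 0.11) and SSE1 (0.30 ± 0.11) were higher too, and SSE1 lost its call after upper-quartile scaling. SSE2 was lower by -0.85 ± 0.09 (7.13e-06). SIS1 differed by 0.22 ± 0.16 (0.255, interval -0.13 to 0.57), and passed at the same 0.22 when mN replicate 1 was left out as well.

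The 12 libraries gave more calls in most comparisons, for the members as for all genes. Against wild type at 30 °C they gave 9 higher in mNmC (52.8% of all genes higher, 11% lower), 9 higher in mC (26.5% and 6.84%), and 6 higher with 2 lower at 37 °C (53.1% and 22.1%). They gave 10 higher in mNmC than in mN (39.3% and 13.7%; XDJ1 by 0.19 in place of 0.34 with 13), 7 higher in mNmC than in mC (41% and 14.4%) and 6 higher in mC than in mN (0.906% and 1.41%). Against 37 °C, 8 were higher in mNmC and SSE2 lower (34.2% and 33.6%), and the interaction was above 0 for the same number of members as with 13, 5 (26.3% and 19%).

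**Figure D4:**
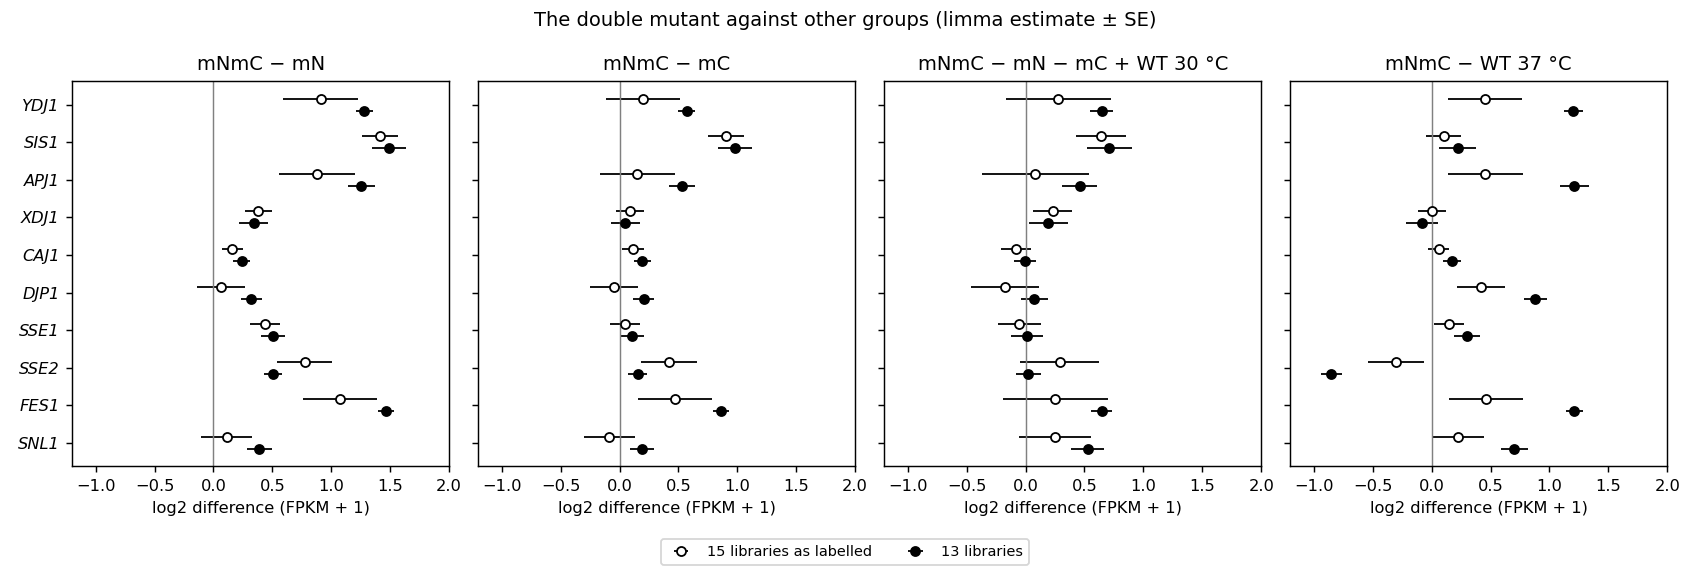
Log2 difference of FPKM + 1 between mNmC and each single mutant, for the interaction, and between mNmC and wild type at 37 °C (limma estimate, bars ± SE), with all 15 libraries (open) and 13 (filled). With 13 libraries SSE2 alone lies well below 0 against 37 °C, at -0.85. Some values change sign with upper-quartile scaling of the 15, where CAJ1, DJP1 and SNL1 lie below 0 against mN. CAJ1, XDJ1, DJP1, SSE1 and SNL1 then lie below 0 against mC, and APJ1, CAJ1, DJP1 and SSE1 in the interaction. Of these, CAJ1, DJP1 and SNL1 against mN, CAJ1 against mC and APJ1 were called above 0 with 13. With the 13 scaled, CAJ1, DJP1, SSE1 and SSE2 lie below 0 in the interaction, and XDJ1 and SSE1 against mC.

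Ratios within a library do not depend on how libraries are scaled, and they show how the make-up of the set differed. SIS1 mRNA was 0.691 to 0.757 of YDJ1 mRNA in wild type at 30 °C, 0.767 to 0.816 in mC and 0.747 to 1.06 in mN. In mNmC it was 1.06 and 1.03, against 1.94 in the library labelled replicate 3, and at 37 °C 2.06 and 2.08, against 1.03 in the library labelled replicate 3. At 37 °C SIS1 thus exceeded YDJ1 in every library, as it did in mNmC, and by most in replicates 1 and 2 at 37 °C. SSE2 mRNA was 0.162 to 0.207 of SSE1 mRNA in all genotypes at 30 °C other than the library labelled mNmC replicate 3 (0.376). At 37 °C it was 0.403 and 0.439, against 0.195 in the library labelled replicate 3. FES1 mRNA was 0.564 and 0.579 of SSE1 mRNA in mNmC replicates 1 and 2, and 0.246 to 0.36 in all other libraries except that labelled 37 °C replicate 3 (0.533).

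**Figure D5:**
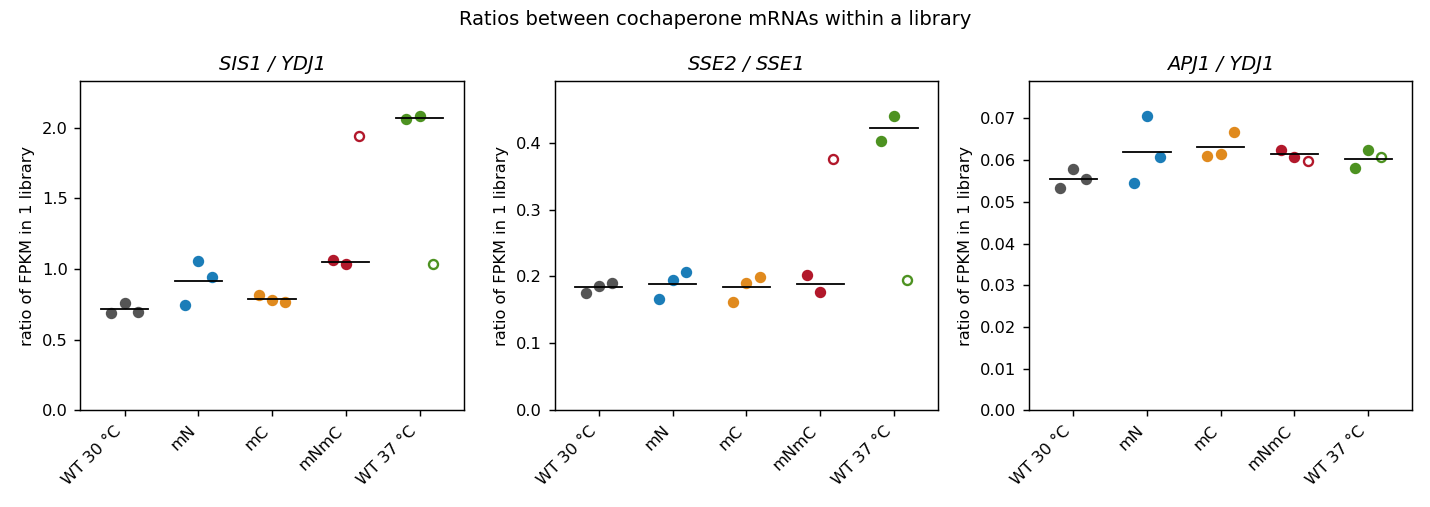
FPKM ratios between members within each library, by group: SIS1 to YDJ1, SSE2 to SSE1 and APJ1 to YDJ1. Open symbols are the libraries labelled mNmC replicate 3 and 37 °C replicate 3, and lines are group means without them; SSE2 to SSE1 is 0.403 and 0.439 in the filled points at 37 °C, and APJ1 to YDJ1 stays between 0.0532 and 0.0705.

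The genes most alike each member were found by Pearson's r of log2(FPKM + 1) over the 15 libraries among 5418 well-measured genes, a description in which the points share groups and libraries. YDJ1, APJ1 and FES1 were among each other's 3 most alike (r from 0.956 to 0.984). RPT2, an ATPase of the proteasome base, came next for YDJ1 (0.939) and APJ1 (0.941). RPN4, the transcription factor of the proteasome genes, was the gene most like FES1 (0.978). SSE1 was most like SSA2 (0.985), HSC82 (0.967) and SSA1 (0.882), which encode cytosolic Hsp70s and a constitutive Hsp90. SNL1 was most like the ribosomal protein genes RPL34A (0.984), RPL35B (0.982) and RPL37B (0.981). SIS1 (IRC18, 0.981), SSE2 (KIN1, 0.975), DJP1 (NOP6, 0.966), XDJ1 (OPI1, 0.970) and CAJ1 (LCB5, 0.940) each had no member among their 3. SIS1 and SSE2 had an r of 0.79 with each other, and YDJ1 and SSE2 0.10.

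Another 25 genes of the Hsp70 network, Hsp70s and further J-proteins and exchange factors of several compartments, were counted beside the members. In mNmC 7 rose and 3 fell with 13 libraries, where 40.6% of all genes were higher and 7.39% lower, and 6 rose and none fell as labelled (24.5% and 2.41%). The largest changes were in SSA4 (4.24 ± 0.09, adjusted p = 1.75e-10), SSA3 (1.58 ± 0.10) and SSA1 (1.42 ± 0.11), all cytosolic Hsp70s, and in JJJ3 (0.91 ± 0.13), a J-protein of diphthamide synthesis. At 37 °C 16 rose and 7 fell with 13 libraries, where 47% of all genes were higher and 18.9% lower, and 8 rose and 3 fell as labelled (32.1% and 5.97%). SSA4 (5.02 ± 0.09), SSA3 (3.24 ± 0.10) and SIL1 (2.25 ± 0.13), an exchange factor of the endoplasmic reticulum, rose the most, and SSB1 (-1.78 ± 0.18), an Hsp70 bound to ribosomes, fell the most. SIL1 did not pass as labelled (1.39 ± 0.69, adjusted p = 0.124). Upper-quartile scaling of the 13 kept the calls of all 6 named genes, and gave 5 higher and 5 lower in mNmC (22.2% and 15.3% of all genes) and 11 higher and 7 lower at 37 °C (35.2% and 29%). SSA1 and SSA2, and SSB1 and SSB2, are near-identical pairs whose shared reads could have been split between them, whereas no stretch of 50 bases of any of the 10 members recurs elsewhere in the R64 genome.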

How the data were processed

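The deposited table held FPKM, scaled by the authors to gene length and to the reads counted in each library, as its values show; the unit is inferred, since FPKM times gene length gave whole reads within 0.01 read for 99.87 to 99.89% of 5684 single-exon genes. Per the submitters' processing notes the tools were Bowtie2 2.2.3, TopHat2 2.0.12 and HTSeq 0.6.1. For genome build, strand setting and filters, the sources used here give nothing. R64 supplied symbols, coordinates and sequence (6048 identifiers matched).

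Values were taken as log2(FPKM + 1), which understates changes of low genes, for 6399 genes that reached 1 FPKM in 3 or more libraries. All 15 libraries entered 1 linear model of group means in limma 3.58.1 (R 4.3.3, eBayes with trend), giving Benjamini-Hochberg adjusted p over all tested genes, called under 0.05, and 95% intervals. The fit was tested on simulated data in which every library had the spread of wild type at 30 °C. No simulated library stood apart from its group, so the test does not cover that feature of the real data. P-values measure the spread between the labelled biological replicates. Comparisons against wild type share its 3 libraries. No batch is given in the labels. Deviations of same-numbered libraries mostly had low correlations, with 3 of 30 pairs over 0.1 as labelled (range -0.95 to 0.15). With 13 libraries it was 4 of 23 (-0.05 to 0.15). Replicates 3 of wild type at 30 °C, mN and mC were all above 0 with each other (0.07, 0.15 and 0.14). Differently numbered pairs were not examined, so a small shared effect is not excluded. No block was used in the main fit. Alternatives were 13 libraries, upper-quartile scaling, both together, a pseudocount of 0.1, no filter, a replicate block, each library left out, and, added after seeing the data, 12 libraries (the 13 less mN replicate 1); the genes tested stayed those of the 15-library filter, except with no filter.

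The members and lists were chosen with earlier results of these data known. Named genes are the members, the 3 genes most alike each (Pearson r over 15 libraries, mean of at least 10 FPKM), up to 4 called network genes per comparison of mNmC and 37 °C, and HSF1 and CTT1 as checks. Motifs were searched, with Python 3.11.15, in 500 bases before start codons of 6000 genes.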

Additional observations from a re-analysis of the deposited data

Results flagged for a closer look

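With 13 libraries the effect of the carboxyl-terminal mutation differed between cells with and without the amino-terminal one for 5 members, by the interaction term of the limma fit. Of all tested genes 22.1% were called above 0 and 12.8% below, with a median term of 0.14. The term was 0.65 ± 0.10 for YDJ1, 0.71 ± 0.19 for SIS1, 0.46 ± 0.15 for APJ1, 0.65 ± 0.09 for FES1 and 0.53 ± 0.14 for SNL1 on the log2 scale. As labelled the same terms were 0.28 ± 0.45, 0.64 ± 0.21, 0.08 ± 0.45, 0.25 ± 0.44 and 0.25 ± 0.31, and none passed. Upper-quartile scaling of the 13 ended the call of APJ1 (limma adjusted p = 0.0533). For SNL1 the term joined effects of opposite sign with 13 libraries. The carboxyl-terminal mutation gave -0.14 ± 0.09 without the amino-terminal one, which did not pass, and 0.39 ± 0.10 with it.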

How the results depend on the processing

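Leaving out the libraries labelled mNmC replicate 3 and 37 °C replicate 3 brought 39 more member values past the threshold. Calls over all genes rose too, from 24.5% to 40.6% higher in mNmC and from 0.172% to 12.3% higher in mC. Scaling all 15 to the upper quartile lost 10 member calls. Over all genes it moved the share higher in mNmC from 24.5% to 10.3%, and that lower from 2.41% to 5.38%. A pseudocount of 0.1 and no filter changed no member call. Of the members called as labelled, SIS1 in its 4 comparisons, SSE2 at 37 °C and FES1 in mNmC against wild type kept their calls under every alternative. With 13 libraries 5 members were called higher and 2 lower at 37 °C, and 1 higher and 1 lower in mN. In mC 7 were higher, and in mNmC against wild type 8. For mNmC, 10 were higher against mN, 5 against mC, and 6 higher with 1 lower against 37 °C. For mC against mN 4 were higher, and 5 were above 0 in the interaction. The shares of all genes called in this fit are given above with each comparison. With those 13 scaled to the upper quartile 3 members were higher and 3 lower at 37 °C, and 1 higher and 1 lower in mN. In mC 5 were higher and 1 lower, and in mNmC against wild type 6 were higher. For mNmC, 5 were higher against mN, 4 against mC, and 5 higher with 1 lower against 37 °C. For mC against mN 3 were higher, and 4 were above 0 in the interaction. Of all genes that fit called 35.2% higher and 29% lower at 37 °C, 13% and 7.88% in mN, and 7.67% and 4.58% in mC. In mNmC against wild type it called 22.2% and 15.3%. For mNmC it called 22.3% and 20.9% against mN, 18.4% and 17.1% against mC, and 30.5% and 28.6% against 37 °C. For mC against mN it called 0.547% and 1.08%, and in the interaction 17.2% and 19.6%. With 12 libraries 6 members were higher and 2 lower at 37 °C, and 4 higher and 1 lower in mN. In mC 9 were higher, as were 9 in mNmC against wild type. For mNmC, 10 were higher against mN, 7 against mC, and 8 higher with 1 lower against 37 °C. For mC against mN 6 were higher, and 5 were above 0 in the interaction. The shares of all genes in the 12-library fit are also given above. With all 15 scaled 2 members were higher and 1 lower at 37 °C, 2 higher in mNmC, 1 against mN and 1 against mC. Of all genes, 17.4% were then higher and 12.2% lower at 37 °C, and 10.3% and 5.38% in mNmC. Against mN the shares were 8.72% and 7.06%, and against mC 6.7% and 4.53%. Same-numbered libraries share only a number. The replicate block left 1 member called for mNmC against mN, where 1027 of the 6399 genes were higher and 107 lower. It also ended the calls of APJ1 in mNmC (limma adjusted p = 0.0776) and SSE1 at 37 °C (0.0546).

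Leaving out 1 library gave 2 to 5 members higher and 0 to 1 lower at 37 °C, 0 to 1 in mC, 3 to 7 in mNmC, 2 to 7 against mN and 1 to 2 against mC. At 37 °C it gave 2 without any wild-type library at 30 °C or without 37 °C replicate 1, and 1 lower without either library that stood apart. In mNmC it gave 3 without wild-type replicate 1 at 30 °C. Against mN it gave 2 without any mN library or mNmC replicate 2, and 3 without mNmC replicate 1. In mC it gave 1 without mN replicate 1 or the library labelled 37 °C replicate 3, and against mC 2 without that labelled mNmC replicate 3. The other comparisons stayed at 0. Calls over all genes moved in these fits as well. Of the 6399 genes, 1022 to 2683 were called higher and 116 to 902 lower at 37 °C. In mC 3 to 65 were called higher, and in mNmC 901 to 2015. For mNmC against mN 758 to 1667 were called higher, and against mC 352 to 1070.

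Signs changed under an alternative only for member values that had not passed as labelled, and the cause was not tested. On the log2 scale, with 13 libraries YDJ1 was -0.00083 at 37 °C, SNL1 0.053 in mNmC, XDJ1 -0.080 for mNmC against 37 °C, DJP1 0.20 and SNL1 0.19 against mC, and DJP1 0.076 and SSE1 0.0087 in the interaction. With 12 libraries the first 5 were the same, CAJ1 was 0.0051 and SSE1 0.12 in the interaction, and in mN XDJ1 was 0.0094 and SSE1 -0.011. With 13 scaled, YDJ1 was -0.23 and APJ1 -0.11 at 37 °C, XDJ1 -0.0081 in mNmC and -0.060 against 37 °C, CAJ1 -0.033 for mC against mN and SSE2 -0.14 in the interaction. Against mC they were XDJ1 -0.094, DJP1 0.062, SSE1 -0.037 and SNL1 0.047. With 15 scaled, DJP1 was -0.013 in mNmC, XDJ1 -0.0025 against 37 °C, CAJ1 -0.033 for mC against mN and APJ1 -0.080 in the interaction. There, CAJ1 was -0.067, DJP1 -0.16 and SNL1 -0.11 against mN, and XDJ1 -0.060, CAJ1 -0.034 and SSE1 -0.10 against mC. Some of these values below 0 with 15 scaled had been called above 0 with 13 libraries. They were DJP1 in mNmC, CAJ1, DJP1 and SNL1 against mN, CAJ1 against mC and APJ1 in the interaction.

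Ranges over fits without 1 library that crossed 0 were -0.00083 to 0.61 for YDJ1 at 37 °C and -0.36 to 0.053 for SNL1 in mNmC. In mN they were -0.044 to 0.20 for APJ1, -0.24 to 0.0094 for XDJ1 and -0.011 to 0.17 for SSE1. For mNmC against mN they were -0.077 to 0.32 for DJP1 and -0.027 to 0.39 for SNL1, and against mC -0.040 to 0.53 for APJ1, -0.19 to 0.20 for DJP1 and -0.23 to 0.19 for SNL1. Against 37 °C they were -0.042 to 0.049 for XDJ1 and -0.0085 to 0.14 for CAJ1, and for mC against mN -0.0013 to 0.087 for CAJ1. In the interaction they were -0.11 to 0.46 for APJ1, -0.32 to 0.076 for DJP1 and -0.13 to 0.057 for SSE1. Every member had at least 470 reads in every library; precision is also limited by the 2 or 3 libraries of a group.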

Other observations

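Summed over the 6 J-proteins, mRNA was 1096 to 1139 FPKM in wild type at 30 °C, 1029.7 to 1296 in mN, 1734 to 1768 in mC. In mNmC replicates 1 and 2 it was 2821 and 2888 FPKM. At 37 °C it was 1984 and 1778 FPKM. The 4 exchange factors summed to 941 to 955 FPKM in wild type at 30 °C, 956 to 1099.5 in mN, 1329.8 to 1355 in mC, 1674 and 1666 in mNmC replicates 1 and 2, and 1363 and 1260.5 at 37 °C. The libraries labelled replicate 3 of mNmC and 37 °C gave 1920.3 and 2714 FPKM for J-proteins, and 1360 and 1600.5 for exchange factors. Leaving those libraries out, the sums of mNmC were above those of every other group for both classes. Abundant genes weigh most in such sums, as YDJ1 and SIS1 did in mNmC (means of 1260 and 1320 FPKM). Not every member followed the sums: XDJ1 and SSE2 were highest at 37 °C, and SNL1 in mNmC overlapped wild type at 30 °C.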
